A study of Saccharomyces cerevisiae with 12 samples.

Results

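The enzymes that make amino acids were followed in ribosome footprints of budding yeast (Saccharomyces cerevisiae). The 49 enzymes, of 6697 genes in the count table, were taken by systematic gene name: 7 make histidine, 7 arginine, 10 the branched-chain amino acids, 7 lysine, 7 the aromatic amino acids, 4 serine, 5 threonine and 2 asparagine. A ribosome footprint is the stretch of messenger RNA that a ribosome covers and protects from a nuclease, so a gene's footprint count follows both the amount of its messenger RNA and the number of ribosomes on it. Fewer messenger RNAs and fewer ribosomes on each could not be told apart here. IDRm cells (genotype Ded1_IDRm-mCherry) and WT cells (genotype Ded1-mCherry), both in the W303 Ade+ background, were kept for 10 min at 30, 40 or 42 °C, with 2 libraries for each of the 6 groups. Both strains therefore carried the fluorescent tag mCherry on Ded1, an RNA helicase that helps ribosomes start translation. The replicate cultures of a strain began as separate pre-cultures, and the labels do not say whether more than a single clone of either strain was used.

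Yeast can make every amino acid from intermediates of sugar metabolism and ammonia, and many of these enzymes form short linear pathways in the cytosol and the mitochondrial matrix. Their genes are known for general amino acid control: when an amino acid runs short, the kinase Gcn2 slows general translation while ribosomes reach the start codon of GCN4 more often, and the transcription factor Gcn4 then activates biosynthetic genes of most pathways together. Gcn4 binds the sequence TGACTCA. W303 strains carry mutant alleles of some of these genes, such as HIS3, which are used as selection markers.

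Total counts lay between 3429950 and 7851819 per library, and all 49 enzymes passed the filter on low counts. Footprints on HSP104, the gene of a heat-induced disaggregase, were taken as CPM (counts scaled to a common library size). HSP104 had 31150 and 33320 CPM at 40 °C and 17410 and 17650 at 42 °C in IDRm cells. In WT cells it had 29270 and 28180 CPM at 40 °C and 12910 and 12890 at 42 °C. At 30 °C it had 903 and 1166 CPM in IDRm cells and 705 and 1069 CPM in WT cells. The DED1 gene itself, as counted, had 1052 to 1436 CPM in the IDRm and 1280 to 1457 CPM in the WT libraries. Levels and changes below are relative to scaled library sizes (trimmed mean of M-values), with 2 libraries per value. The shares of library counts on the enzymes and pathways are unscaled. Scaling by library size alone moved the median change of all genes by -0.23 in IDRm and -0.24 in WT cells on the log2 scale for 40 against 30 °C, by 0.21 in IDRm and 0.31 in WT cells for 42 against 40 °C, and by -0.11 for IDRm against WT at 42 °C, and changes of about that size or smaller depend on the choice. A gene was called higher or lower at an edgeR adjusted p of at most 0.05 over 5719 tested genes, and the error after ± in a log2 change is an approximate standard error.

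The Gcn4 motif was looked for on both strands in the 500 bases before each start codon of the R64 genome, since it marks the shared regulator of these pathways. It stood before 29 of the 49 enzymes (59.2%), against 233 of 5566 tested genes with such a window (4.19%). The shorter core TGACTC, which the full motif contains, stood before 37 enzymes (75.5%) and 13.0% of the genes. All 7 arginine enzymes held the full motif and none of the 4 serine enzymes did. The windows below belong to the enzymes on which most of the results turn, read 5′ to 3′ along the gene, with the motif in capitals (TGAGTCA is the same motif on the other strand).
HIS4 (chrIII:68516-68542, minus strand): ccatgcacagTGACTCAcgttttttta
HIS5 (chrIX:142716-142742, plus strand): ttggatctgtTGACTCActtcaattga
ARG1 (chrXV:218856-218882, plus strand): gattttttagTGACTCAtgtcgcattt
CPA1 (chrXV:882405-882431, plus strand): gaagggtgttTGACTCAtcatcgcatc
ILV5, farther motif (chrXII:839548-839574, minus strand): tggctgtcagTGACTCAtccgcgtttc
ILV5, nearer motif (chrXII:839377-839403, minus strand): tgacctaactTGACTCAatggctttta
ILV3 (chrX:466327-466353, minus strand): cctctccagaTGACTCAgtaatatagt
LYS1 (chrIX:420970-420996, minus strand): actaagtcgaTGAGTCAaaaaagactc
ARO1 (chrIV:704251-704277, plus strand): gtcatgcataTGACTCAtcccgaacat
HOM3 (chrV:258225-258251, minus strand): ttcaggcccaTGACTCAccttttcttt
ASN1 (chrXVI:822383-822409, plus strand): atgtaacattTGACTCAttctgtaaac
The motif's outer end lay 202 bases before the start codon of HIS5, 135 before that of ILV3 and 484 before that of CPA1. ILV5 was the enzyme with 2 full motifs, 311 and 140 bases before its start codon. ILV2, SER3 and TRP5, which recur below, had no full motif in this window. The stress element AGGGG, bound by stress-responsive factors, stood before 15 enzymes (30.6%) and 34.4% of the genes, and the site of Leu3, a regulator of branched-chain synthesis, before 4 enzymes (8.16%) and 0.287% of the genes.

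After 10 min of heat, most of the biosynthetic enzymes held a smaller share of the footprints in both strains. Together they took 2.97% and 3.03% of the counts at 30 °C, 1.779% and 1.781% after heating to 40 °C and 2.44% and 2.49% after heating to 42 °C in the IDRm libraries. In the WT libraries they took 2.85% and 2.83% at 30 °C, 1.55% and 1.59% after heating to 40 °C and 1.98% and 2.06% after heating to 42 °C. The unscaled share was thus lowest at 40 °C in each strain, and the IDRm libraries lay above the WT libraries at each temperature without overlap. In WT cells the gap between 40 and 42 °C depended on scaling: relative to scaled library sizes, the WT libraries of these temperatures overlapped. By unscaled share, the arginine enzymes stayed near their 40 °C value at 42 °C. The asparagine and branched-chain enzymes then lay closer to their 30 °C share. For the branched-chain enzymes in WT cells this depended on scaling: on scaled levels they lay closer to 40 °C.

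**Figure D1:**
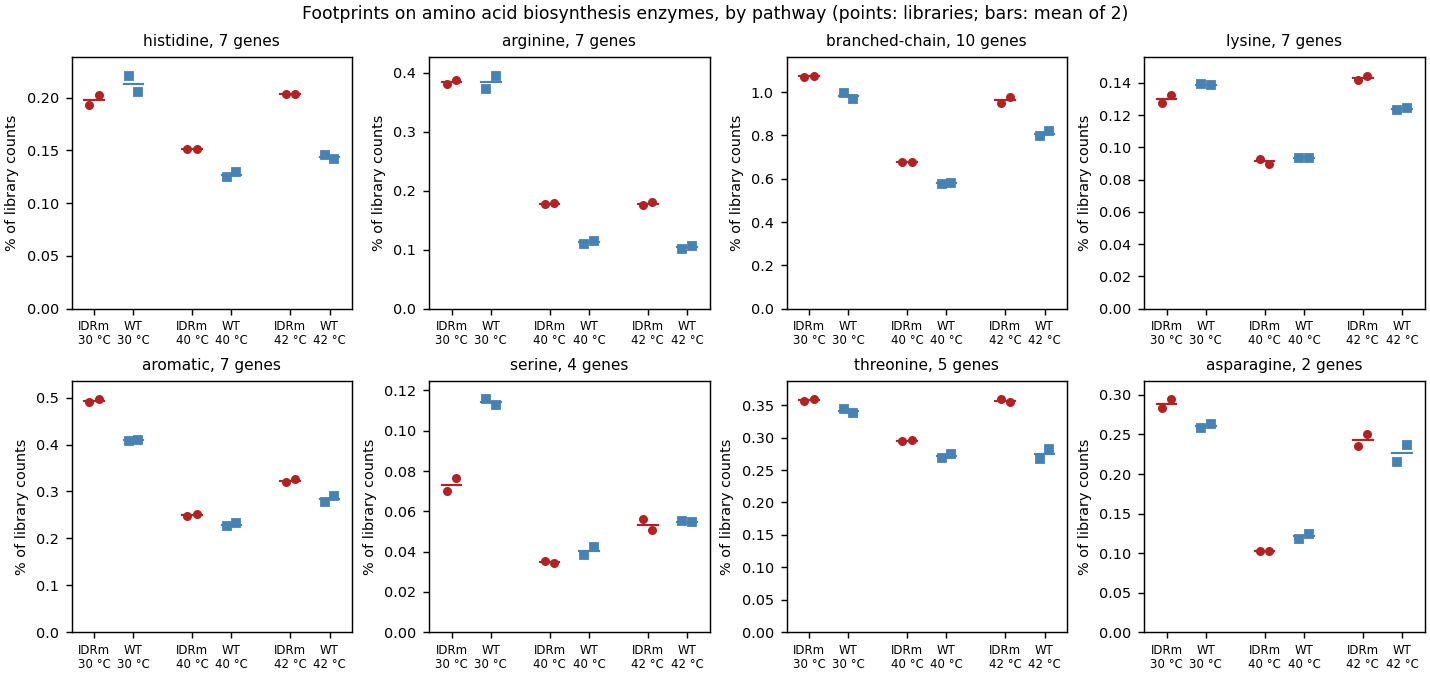
Share of each library's counts (%, vertical axis from 0) on the enzymes of each pathway, by strain and temperature, with a point for each library and a bar at the mean of 2 (red circles IDRm, blue squares WT). The 7 arginine enzymes lay at 0.175% to 0.181% in IDRm and 0.101% to 0.107% in WT cells at 42 °C, and the 4 serine enzymes at 30 °C lay at 0.0701% and 0.0764% in IDRm and 0.116% and 0.113% in WT cells.

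At 40 °C, 33 of the 49 enzymes fell and 7 rose in IDRm cells, and 35 fell and 3 rose in WT cells, each relative to 30 °C. Over all tested genes, 39.9% were called lower and 37.4% higher in IDRm, and 39.5% lower and 36.1% higher in WT, so the enzymes' share of falls, 67.3% in IDRm and 71.4% in WT, lay above these and their share of rises below. Their median log2 change was -0.49 in IDRm and -0.57 in WT, beside 0.01 and -0.02 over all genes. At least 2-fold falls were called for 15 enzymes in IDRm and 13 in WT, and an at least 2-fold rise for 1 in IDRm (LYS1) and for none in WT. Among all 5719 tested genes, falls of that size were called for 1210 in IDRm and 1066 in WT. Rises of that size were called for 1257 in IDRm and 1170 in WT. The count of rises in IDRm was 4 without IDRm 30 °C replicate 1 or IDRm 40 °C replicate 2. Of the 33 enzymes that fell in IDRm and the 35 in WT, 31 were the same.

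At 42 °C, more of the enzymes rose in IDRm than in WT cells. In IDRm cells 26 enzymes fell and 13 rose relative to 30 °C, with 36.7% of all tested genes lower and 36.8% higher, and in WT cells 38 fell and 1 rose, with 33.6% lower and 30% higher. The enzymes' share of rises, 26.5% in IDRm and 2.04% in WT, lay below that of all genes. The rises of LYS9 and BAT2 in IDRm were lost with DESeq2's size factors, with no filter and with DESeq2's Wald test. The median log2 change was -0.26 in IDRm and -0.42 in WT. Relative to 40 °C, 8 enzymes fell and 28 rose at 42 °C in IDRm (27% and 27.3% of all genes), and 15 fell and 19 rose in WT (29.4% and 29.8% of all genes). With scaling by library size alone, 5 fell in IDRm, and 8 fell and 31 rose in WT. In all 4 comparisons of a heated group with 30 °C, 22 enzymes fell, beside 24.2% of all tested genes, among them ARG1, ARG4, CPA1, ARO1, TRP5, SER1 and SER33. ILV2 rose in all 4, as did 21.2% of all genes. Of the 22, 19 passed each of the 4 tests with any 1 library left out, and ARG8, ILV6 and SER3 did not. The change of SER3 at 40 °C in IDRm cells was -0.27, and the call was lost without IDRm 30 °C replicate 1 (-0.21, edgeR adjusted p = 0.122), without IDRm 40 °C replicate 2 (-0.21, edgeR adjusted p = 0.161) and with DESeq2's size factors (-0.22, edgeR adjusted p = 0.0515). The comparisons of 40 and 42 °C share their 30 °C libraries.

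**Figure D2:**
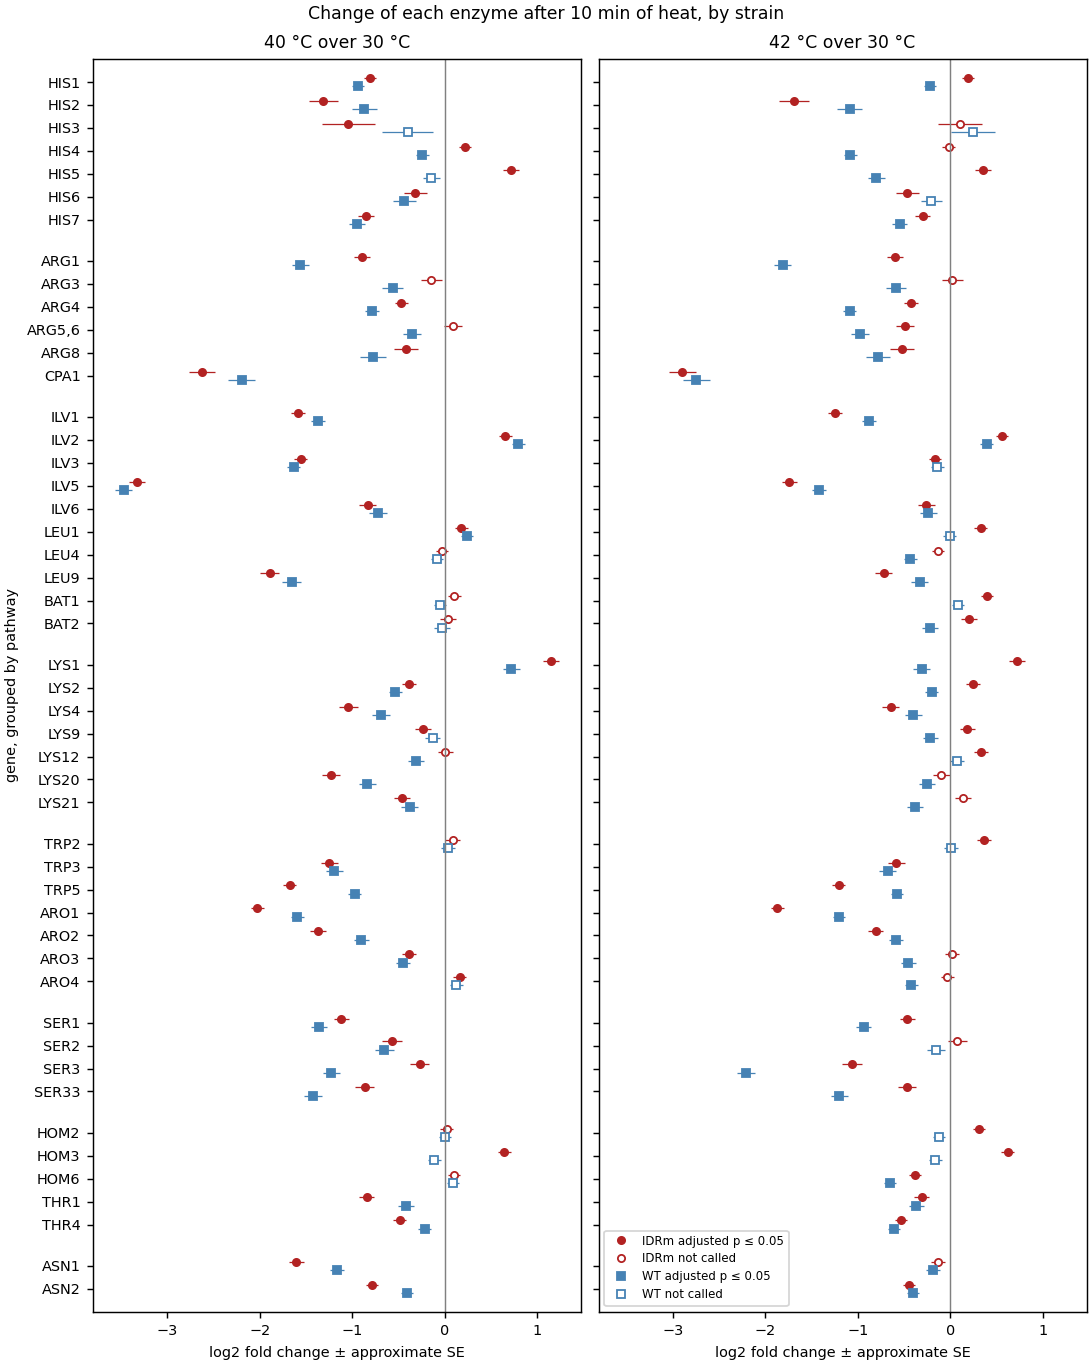
Log2 change of 48 of the 49 enzymes from 30 °C to 40 °C (left) and to 42 °C (right), with its approximate standard error, grouped by pathway (red circles IDRm, blue squares WT, filled where the adjusted p was at most 0.05). ILV5 lies farthest to the left at 40 °C, at -3.33 in IDRm and -3.47 in WT cells, and CPA1 at 42 °C, at -2.90 and -2.74.

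Between the strains, the enzymes differed in both directions at 30 and 40 °C and mostly upward at 42 °C. At 30 °C, 7 were lower and 12 higher in IDRm than in WT cells, with 6.75% and 9.58% of all tested genes. At 40 °C, 11 were lower and 17 higher, with 14.5% and 11.4% of all genes. At 42 °C, 5 were lower and 27 higher, with 20.7% and 20.4% of all genes, or 9 lower and 22 higher with scaling by library size alone. The median of the 49 differences at 42 °C was 0.22 beside 0.00 over all genes. ARO3, ARO4, BAT1, HOM2, ILV2, ILV6 and LEU4 were higher in IDRm at all 3 temperatures, as were 2.31% of all tested genes. Of these 7, ARO3 and BAT1 lost the call at 30 °C without IDRm 30 °C replicate 1 (edgeR adjusted p = 0.127 and 0.0574). ILV2 lost the call at 40 °C without WT 40 °C replicate 1 or IDRm 40 °C replicate 2 (edgeR adjusted p = 0.0622 and 0.149). SER3 was lower in IDRm at all 3 temperatures, as were 1.87% of all genes. Its difference at 42 °C, -0.34, was -0.22 without WT 42 °C replicate 2 (edgeR adjusted p = 0.192) and -0.20 without IDRm 42 °C replicate 2 (edgeR adjusted p = 0.289), and the call was lost in both. The lower counts rest in part on single libraries: 3 at 30 °C without WT 30 °C replicate 1 or IDRm 30 °C replicate 1, 5 or 6 at 40 °C without WT 40 °C replicate 2 or either IDRm 40 °C library, and 3 at 42 °C without IDRm 42 °C replicate 2, while the 12 higher at 30 °C were 6 without IDRm 30 °C replicate 1.

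The test of the difference itself, the change with heat in IDRm minus that in WT, was called below 0 for 6 enzymes and above 0 for 10 between 40 and 30 °C, with 8.52% and 3.81% of all genes. Between 42 and 30 °C it was below 0 for 6 and above 0 for 25, with 16.1% and 11.4% of all genes. The 10 were 6 without IDRm 30 °C replicate 1, and the 6 below 0 at 42 °C were 3 without IDRm 30 °C replicate 1 or IDRm 42 °C replicate 2. At 42 °C, HIS1, HIS5, BAT2, LYS1, LYS2 and LYS9 rose in IDRm and fell in WT cells, each relative to 30 °C. The share of all tested genes with such opposite calls is not given here. The difference was also called for all 6, but opposite calls make this likely, so it is not separate support. Both calls of HIS5 and the rise of LYS1 in IDRm held with any 1 library left out. The fall of LYS1 in WT, the rises and falls of the other 4 enzymes, and the differences of BAT2 and LYS9 were each lost without at least 1 library.

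**Figure D3:**
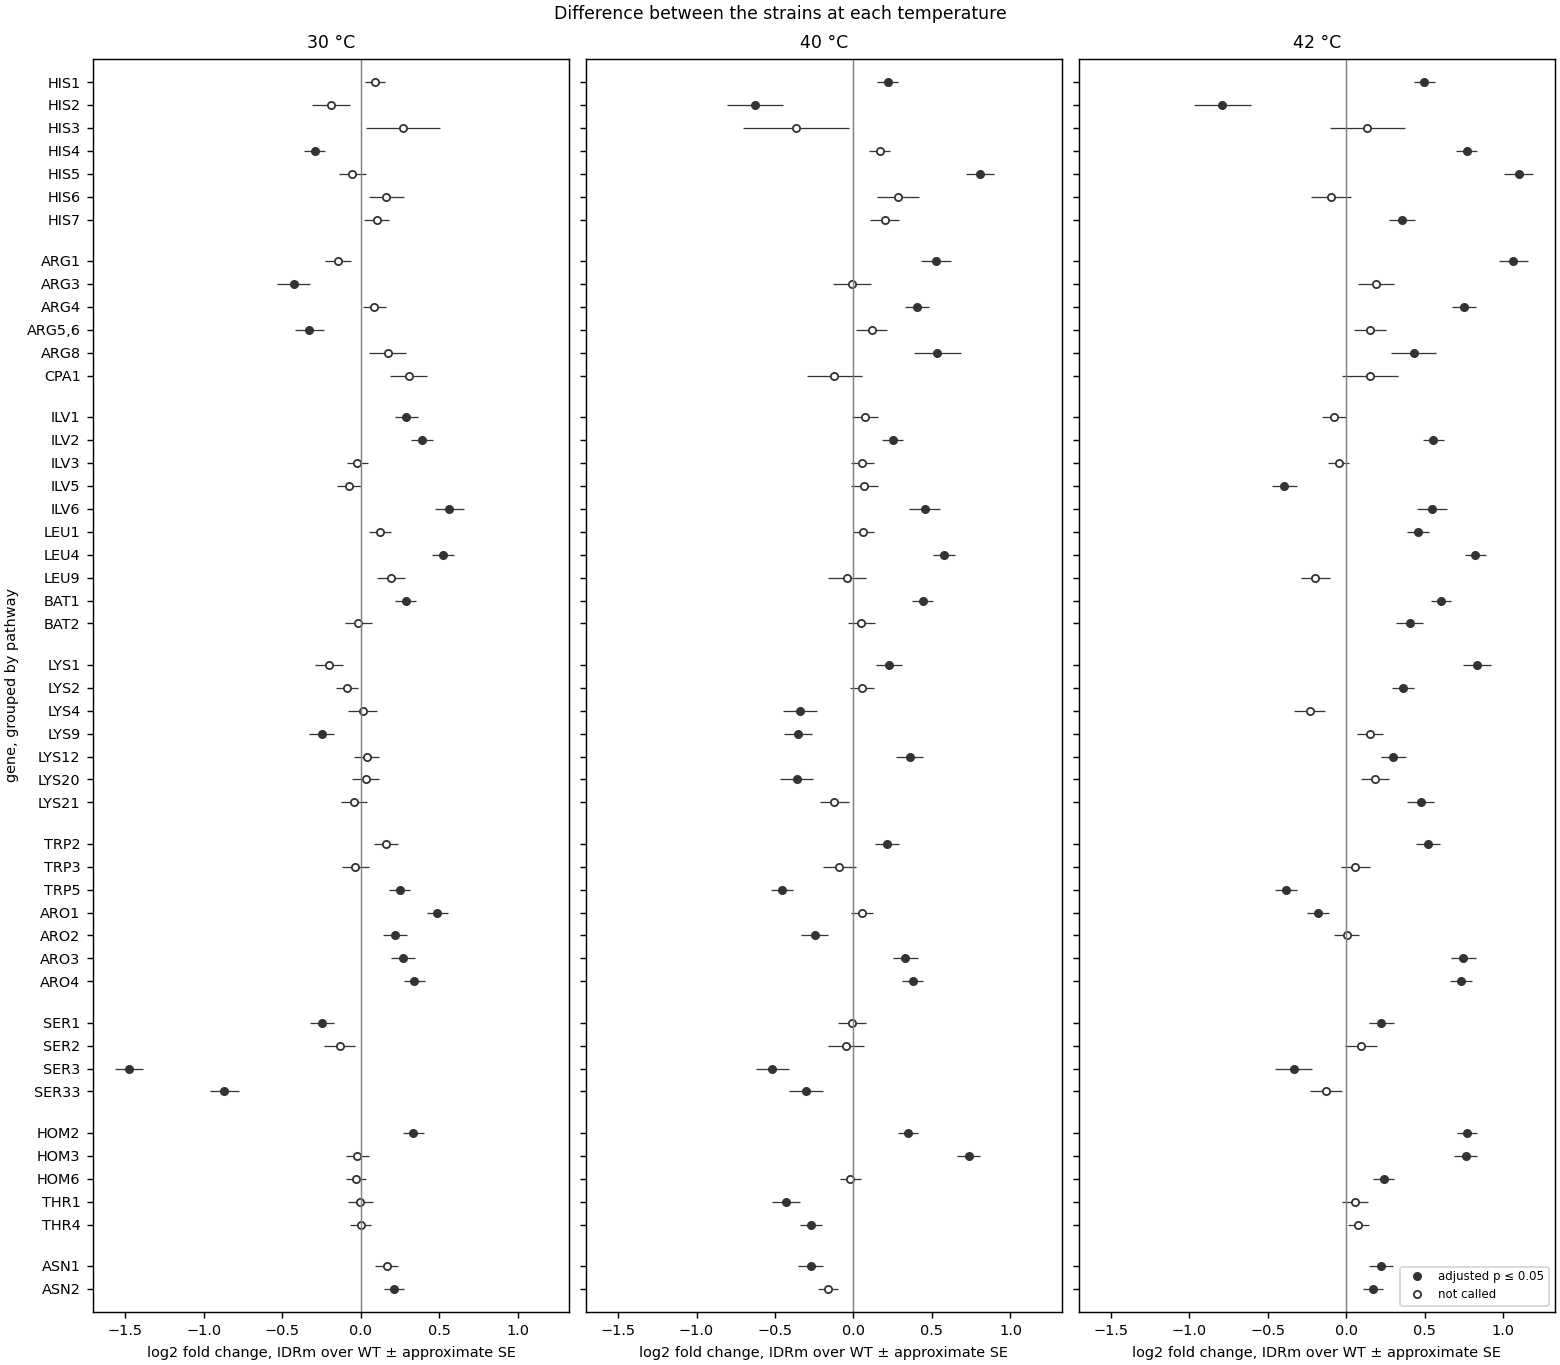
Log2 difference of 48 of the 49 enzymes between IDRm and WT cells (IDRm over WT) at 30, 40 and 42 °C, with its approximate standard error, grouped by pathway (filled where the adjusted p was at most 0.05). Among those to the right of 0 as called at 42 °C are HIS5 at 1.10 and ARG1 at 1.06, and SER3 lies farthest to the left at 30 °C, at -1.48.

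Of the 7 histidine enzymes, 5 fell at 40 °C in each strain, and HIS4 and HIS5 rose in IDRm cells. The rise of HIS4 there, 0.22, became -0.01 with scaling by library size alone. It was 0.19 without IDRm 30 °C replicate 1 and 0.16 without IDRm 40 °C replicate 2. HIS5 (YIL116W) encodes histidinol-phosphate aminotransferase, which acts late in the pathway. HIS5 had 189.8 and 197 CPM at 30 °C, 308 and 326 after heating to 40 °C and 251 and 242 after heating to 42 °C in IDRm cells. In WT cells its level was 217 and 180.4 CPM at 30 °C, 169 and 192 after heating to 40 °C and 120.3 and 109 after heating to 42 °C. The heated IDRm libraries lay above all other libraries, and the WT libraries at 42 °C lay below all others. Relative to 30 °C the log2 change of HIS5 at 42 °C was 0.35 ± 0.09 (edgeR adjusted p = 6.35e-04) in IDRm and -0.80 ± 0.09 (edgeR adjusted p = 3.64e-09) in WT cells, a difference of 1.15 ± 0.13 (edgeR adjusted p = 1.62e-08). At 40 °C it was 0.71 ± 0.09 (edgeR adjusted p = 6.75e-09) in IDRm and -0.15 ± 0.09 (edgeR adjusted p = 0.133) in WT cells.

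HIS4 (YCL030C), a multifunctional enzyme of several steps, had 691 and 714 CPM at 30 °C, 786 and 847 after heating to 40 °C and 698 and 691 after heating to 42 °C in IDRm cells. HIS4 in WT cells stood at 906 and 815 CPM at 30 °C, 713 and 742 after heating to 40 °C and 401 and 416 after heating to 42 °C. The WT level at 42 °C was the lowest, while the IDRm libraries at 30 and 42 °C overlapped. HIS4 changed at 42 °C by -0.02 ± 0.07 (edgeR adjusted p = 0.828) in IDRm and by -1.08 ± 0.07 (edgeR adjusted p = 3.86e-15) in WT cells, and IDRm was higher than WT at 42 °C by 0.77 ± 0.07 (edgeR adjusted p = 6.54e-11). HIS7 (glutamine amidotransferase and cyclase of the ring-forming step) had 202 and 222 CPM at 30 °C, 115 and 119 after heating to 40 °C and 169 and 177 after heating to 42 °C in IDRm cells. For HIS7, WT cells had 206 and 187 CPM at 30 °C, 101 and 103 after heating to 40 °C and 135 and 135 after heating to 42 °C. It was lowest at 40 °C in both strains, at a log2 change of -0.85 ± 0.09 (edgeR adjusted p = 9.26e-11) in IDRm and -0.95 ± 0.09 (edgeR adjusted p = 1.37e-11) in WT cells. HIS1 (ATP phosphoribosyltransferase, the entry step) also fell at 40 °C, with log2 changes of -0.81 ± 0.07 (edgeR adjusted p = 1.20e-12) in IDRm and -0.94 ± 0.07 (edgeR adjusted p = 4.99e-14) in WT cells.

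HIS2 (histidinol-phosphate phosphatase) was a low-level enzyme and had the deepest fall of the pathway at 42 °C in IDRm cells. It had 33.2 and 35.4 CPM at 30 °C, 14.9 and 12.7 after heating to 40 °C and 12.2 and 8.89 after heating to 42 °C in IDRm cells. The HIS2 level in WT cells was 40.9 and 36.2 CPM at 30 °C, 20.9 and 21.8 after heating to 40 °C and 17.9 and 19.1 after heating to 42 °C. Heated libraries lay below all 30 °C libraries, and at 42 °C the IDRm libraries below the WT libraries. Its change at 42 °C was -1.69 ± 0.16 (edgeR adjusted p = 6.08e-11) in IDRm and -1.09 ± 0.14 (edgeR adjusted p = 2.43e-08) in WT cells, and the strains differed there by -0.79 ± 0.18 (edgeR adjusted p = 6.90e-04). HIS6 (an isomerase of the pathway) lay between 28.1 and 44.9 CPM in all libraries. The HIS3 gene (YOR202W, imidazoleglycerol-phosphate dehydratase) had 13 to 51 counts per library, which limits its precision. HIS3 stood at 7.58 and 7.72 CPM at 30 °C, 4.16 and 3.23 after heating to 40 °C and 8.52 and 7.93 after heating to 42 °C in IDRm cells. For HIS3, WT cells had 5.71 and 7.57 CPM at 30 °C, 5.29 and 4.39 after heating to 40 °C and 7.54 and 7.46 after heating to 42 °C. HIS3 was called lower at 40 °C in IDRm cells, at -1.04 ± 0.29 (edgeR adjusted p = 0.00164), and the test of the difference between the strains gave -0.64 ± 0.41 (edgeR adjusted p = 0.356).

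The arginine enzymes fell at both temperatures, and for several the fall was smaller in IDRm cells. Of the 7, 5 were called lower at 40 °C and 6 at 42 °C in IDRm cells, and all 7 at both temperatures in WT cells. The difference between the strains' changes was called above 0 for 4 of the 7 at 40 °C and for 5 at 42 °C, and below 0 for none.

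CPA1 (YOR303W) encodes the small subunit of the arginine-specific carbamoyl phosphate synthetase. Its messenger RNA has an upstream reading frame known to repress it when arginine is plentiful. CPA1 fell in both strains. Its level was 291 and 238 CPM at 30 °C, 47.9 and 37.6 after heating to 40 °C and 33.6 and 37.2 after heating to 42 °C in IDRm cells. WT cells had 188 and 245 CPM at 30 °C, 45.4 and 47.5 after heating to 40 °C and 30.3 and 34 after heating to 42 °C. At 40 and at 42 °C the libraries of the strains overlapped, and they lay far below every 30 °C library. The changes of CPA1 at 42 °C were -2.90 ± 0.14 (edgeR adjusted p = 1.38e-12) in IDRm and -2.74 ± 0.14 (edgeR adjusted p = 5.22e-12) in WT cells, and their difference was -0.16 ± 0.21 (edgeR adjusted p = 0.654). The IDRm over WT difference at 42 °C was 0.15 ± 0.18 (edgeR adjusted p = 0.549).

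ARG1 (argininosuccinate synthetase) had 378 and 380.5 CPM at 30 °C, 197 and 209.8 after heating to 40 °C and 237 and 264 after heating to 42 °C in IDRm cells. In WT cells it had 414 and 425 CPM at 30 °C, 142 and 141 after heating to 40 °C and 104 and 138 after heating to 42 °C. Every heated library lay below the 30 °C libraries, and the heated IDRm libraries lay above the heated WT libraries. At 42 °C ARG1 changed by -0.60 ± 0.09 (edgeR adjusted p = 4.01e-07) in IDRm and -1.81 ± 0.09 (edgeR adjusted p = 4.87e-17) in WT cells, which differed by 1.21 ± 0.13 (edgeR adjusted p = 1.06e-08). ARG4 (argininosuccinate lyase, the last step) had 474 and 514 CPM at 30 °C, 362 and 351 after heating to 40 °C and 362 and 375 after heating to 42 °C in IDRm cells. For ARG4, WT cells had 457 and 475 CPM at 30 °C, 258 and 281 after heating to 40 °C and 208 and 231 after heating to 42 °C. It was higher in IDRm than in WT cells by 0.40 ± 0.08 (edgeR adjusted p = 1.18e-04) at 40 °C and 0.75 ± 0.08 (edgeR adjusted p = 9.16e-10) at 42 °C. Of the middle steps, ARG3 (ornithine carbamoyltransferase) had 58.4 and 53.5 CPM at 30 °C, 52.1 and 48.8 after heating to 40 °C and 58.6 and 55 after heating to 42 °C in IDRm cells. The ARG3 level in WT cells was 76.4 and 73.3 CPM at 30 °C, 47 and 53.8 after heating to 40 °C and 46 and 54.8 after heating to 42 °C. The WT libraries at 30 °C stood above the rest, and the IDRm over WT difference there was -0.43 ± 0.11 (edgeR adjusted p = 0.00485, and 0.0649 to 0.0845 without WT 30 °C replicate 1 or IDRm 30 °C replicate 2). ARG5,6 (a precursor of acetylglutamate kinase and reductase) fell at 42 °C, with log2 changes of -0.49 ± 0.10 (edgeR adjusted p = 4.06e-05) in IDRm and -0.97 ± 0.10 (edgeR adjusted p = 1.61e-10) in WT cells. ARG8 (acetylornithine aminotransferase) fell at 42 °C, with -0.52 ± 0.13 (edgeR adjusted p = 6.06e-04) in IDRm and -0.78 ± 0.13 (edgeR adjusted p = 5.81e-06) in WT cells.

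The branched-chain pathway held both the deepest fall of the 49 enzymes at 40 °C, that of ILV5, and the enzyme that rose in all 4 heated comparisons, ILV2. ILV2 and ILV6 encode the catalytic and the regulatory subunit of acetolactate synthase, the shared entry step for isoleucine and valine, and ILV5 and ILV3 encode the steps that follow in the mitochondrion. ILV5 (YLR355C, acetohydroxyacid reductoisomerase) had 2556 and 2587 CPM at 30 °C, 251 and 260 after heating to 40 °C and 752 and 789 after heating to 42 °C in IDRm cells. In WT cells ILV5 had 2840 and 2577 CPM at 30 °C, 234 and 253 after heating to 40 °C and 906 and 1125 after heating to 42 °C. In both strains it was lowest at 40 °C, 10.1-fold lower than at 30 °C in IDRm and 11.1-fold in WT cells, and in between at 42 °C. The log2 changes at 40 °C were -3.33 ± 0.09 (edgeR adjusted p = 1.53e-24) in IDRm and -3.47 ± 0.09 (edgeR adjusted p = 1.20e-24) in WT cells, and at 42 °C -1.74 ± 0.08 (edgeR adjusted p = 5.28e-18) in IDRm and -1.42 ± 0.08 (edgeR adjusted p = 1.03e-15) in WT cells. The IDRm over WT difference at 42 °C was -0.40 ± 0.08 (edgeR adjusted p = 1.59e-04, and -0.23 without WT 42 °C replicate 2).

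ILV3 (dihydroxyacid dehydratase) was also lowest at 40 °C. It had 994 and 966 CPM at 30 °C, 336 and 329.7 after heating to 40 °C and 834 and 913 after heating to 42 °C in IDRm cells. For ILV3, WT cells had 996 and 992 CPM at 30 °C, 317 and 323 after heating to 40 °C and 857 and 951 after heating to 42 °C. All libraries at 40 °C stood at 317 to 336 CPM, and those at 42 °C at 834 to 951 CPM. At 40 °C ILV3 changed by -1.56 ± 0.07 (edgeR adjusted p = 1.01e-19) in IDRm and -1.64 ± 0.07 (edgeR adjusted p = 4.63e-20) in WT cells, and from 40 to 42 °C by 1.39 ± 0.07 (edgeR adjusted p = 2.24e-17) in IDRm and 1.50 ± 0.07 (edgeR adjusted p = 2.30e-18) in WT cells. The strain differences of ILV3 were not called at any temperature, at -0.02, 0.06 and -0.05 for 30, 40 and 42 °C. ILV1 (threonine deaminase, which feeds isoleucine) fell at 40 °C, with log2 changes of -1.59 ± 0.08 (edgeR adjusted p = 6.82e-19) in IDRm and -1.37 ± 0.08 (edgeR adjusted p = 6.54e-17) in WT cells.

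ILV2 (YMR108W) was the enzyme that rose with heat in each strain and at each temperature. It had 1244 and 1249 CPM at 30 °C, 1880 and 2039 after heating to 40 °C and 1771 and 1903 after heating to 42 °C in IDRm cells. Its WT level was 926 and 978 CPM at 30 °C, 1628 and 1667 after heating to 40 °C and 1193 and 1308 after heating to 42 °C. Heated libraries lay above the 30 °C libraries of their strain, and the IDRm libraries above the WT libraries of the same temperature. ILV2 rose at 40 °C by 0.65 ± 0.07 (edgeR adjusted p = 3.05e-10) in IDRm and 0.79 ± 0.07 (edgeR adjusted p = 4.67e-12) in WT cells, and at 42 °C by 0.56 ± 0.07 (edgeR adjusted p = 1.14e-08) in IDRm and 0.39 ± 0.07 (edgeR adjusted p = 9.43e-06) in WT cells. Its partner ILV6 fell at 40 °C, with log2 changes of -0.84 ± 0.10 (edgeR adjusted p = 1.13e-07) in IDRm and -0.73 ± 0.10 (edgeR adjusted p = 1.33e-06) in WT cells. The ILV6 level was 725 and 689 CPM at 30 °C, 381 and 410 after heating to 40 °C and 555 and 627 after heating to 42 °C in IDRm cells. The ILV6 level in WT cells was 492 and 462 CPM at 30 °C, 284 and 293 after heating to 40 °C and 352 and 462 after heating to 42 °C. IDRm lay above WT for ILV6 at every temperature, by 0.57 ± 0.09 (edgeR adjusted p = 3.06e-04) at 30 °C.

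On the leucine branch, LEU1 (isopropylmalate isomerase) lay between 1356 and 2027 CPM in all libraries. LEU1 was higher in IDRm than in WT cells at 42 °C by 0.46 ± 0.07 (edgeR adjusted p = 2.32e-06). Its small called rise at 40 °C, 0.18 ± 0.07 (edgeR adjusted p = 0.021, and 0.0687 to 0.132 without IDRm 30 °C replicate 1, IDRm 30 °C replicate 2, IDRm 40 °C replicate 1 or IDRm 40 °C replicate 2) in IDRm and 0.24 ± 0.07 (edgeR adjusted p = 0.0027, and 0.14 without WT 30 °C replicate 2) in WT cells, became -0.05 in IDRm and -0.00 in WT cells when libraries were scaled by size alone. BAT1 (mitochondrial branched-chain aminotransferase) had 1316 and 1280 CPM at 30 °C, 1365 and 1422 after heating to 40 °C and 1694 and 1723 after heating to 42 °C in IDRm cells. For BAT1, WT cells had 1072 and 1056 CPM at 30 °C, 1007 and 1045 after heating to 40 °C and 1071 and 1181 after heating to 42 °C. The IDRm libraries lay above the WT libraries at all 3 temperatures, by 0.60 ± 0.07 (edgeR adjusted p = 5.13e-09) at 42 °C. BAT2 (the cytosolic form) had 413 and 433 CPM at 30 °C, 420.5 and 445 after heating to 40 °C and 474 and 498 after heating to 42 °C in IDRm cells. The BAT2 level in WT cells was 472 and 378 CPM at 30 °C, 419.8 and 416 after heating to 40 °C and 342 and 395 after heating to 42 °C. The strains overlapped at 30 °C and lay side by side at 40 °C, and IDRm was above WT at 42 °C by 0.40 ± 0.09 (edgeR adjusted p = 3.65e-04).

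**Figure D4:**
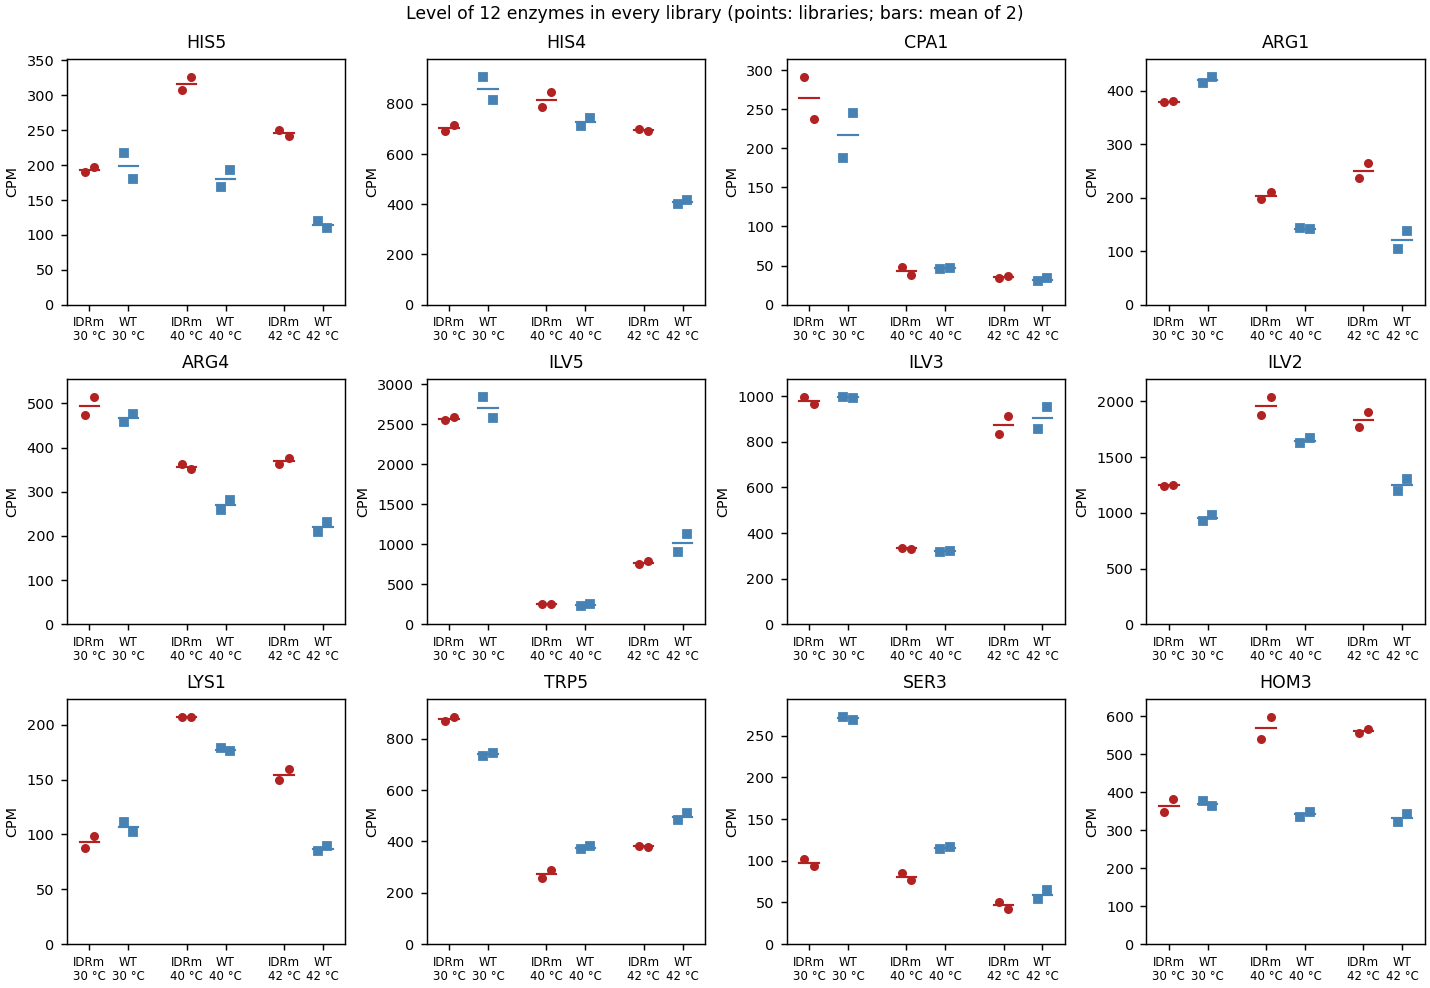
Level of 12 enzymes in every library (CPM, vertical axes from 0), by strain and temperature, with a point for each library and a bar at the mean of 2 (red circles IDRm, blue squares WT). HIS5, ARG1, ARG4, LYS1 and HOM3 lie higher in IDRm than in WT cells at 40 and 42 °C, ILV5 and ILV3 are lowest at 40 °C in both strains, and SER3 is highest in the WT libraries at 30 °C, at 273 and 268 CPM.

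Of the 7 lysine enzymes, 5 fell at 40 °C in each strain, and LYS1 rose there in both. LYS1 (YIR034C, saccharopine dehydrogenase of the lysine-forming step) had 88 and 98.7 CPM at 30 °C, 207 and 207 after heating to 40 °C and 149 and 159.8 after heating to 42 °C in IDRm cells. LYS1 in WT cells was at 112 and 102 CPM at 30 °C, 178 and 176 after heating to 40 °C and 84.7 and 89.6 after heating to 42 °C. Both strains were highest at 40 °C, and at 42 °C the IDRm libraries stayed above the 30 °C libraries of their strain while the WT libraries lay below those of theirs. LYS1 changed at 40 °C by 1.15 ± 0.09 (edgeR adjusted p = 1.30e-13) in IDRm and 0.72 ± 0.09 (edgeR adjusted p = 7.47e-09) in WT cells. Its change at 42 °C was 0.73 ± 0.09 (edgeR adjusted p = 1.10e-08) in IDRm and -0.31 ± 0.09 (edgeR adjusted p = 0.00382, and 0.0739 without WT 30 °C replicate 1) in WT cells, a difference of 1.03 ± 0.13 (edgeR adjusted p = 1.53e-07).

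LYS4 (homoaconitase) had 143 and 138 CPM at 30 °C, 69.9 and 65.9 after heating to 40 °C and 86.1 and 93.5 after heating to 42 °C in IDRm cells. For LYS4, WT cells had 127 and 155 CPM at 30 °C, 83.8 and 87.9 after heating to 40 °C and 105 and 106 after heating to 42 °C. It fell in both strains, at 40 °C with log2 changes of -1.04 ± 0.10 (edgeR adjusted p = 4.07e-11) in IDRm and -0.69 ± 0.10 (edgeR adjusted p = 1.45e-07) in WT cells. LYS9 (saccharopine dehydrogenase of the preceding, glutamate-using step) had 138 and 135 CPM at 30 °C, 119.6 and 112 after heating to 40 °C and 149 and 161 after heating to 42 °C in IDRm cells. The LYS9 level in WT cells was 166 and 158 CPM at 30 °C, 147 and 149 after heating to 40 °C and 137 and 143 after heating to 42 °C. The IDRm libraries lay below the WT libraries at 30 and 40 °C, with a log2 difference at 40 °C of -0.35 ± 0.09 (edgeR adjusted p = 0.00267, and 0.0624 without IDRm 40 °C replicate 2). At 42 °C the IDRm libraries of LYS9 lay above the WT libraries, and this difference was not called. LYS2 (aminoadipate reductase) was higher in IDRm than in WT cells at 42 °C by 0.36 ± 0.07 (edgeR adjusted p = 1.37e-04), and LYS12 (homoisocitrate dehydrogenase) by 0.30 ± 0.08 (edgeR adjusted p = 0.00282).

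Among the aromatic enzymes, ARO1, ARO2 and TRP5 fell further in IDRm than in WT cells at 40 °C. ARO1 (YDR127W) encodes the multifunctional enzyme of the central shikimate steps. It had 1143 and 1186 CPM at 30 °C, 285 and 287 after heating to 40 °C and 323 and 314 after heating to 42 °C in IDRm cells. In WT libraries ARO1 was at 858 and 801 CPM at 30 °C, 268 and 282 after heating to 40 °C and 376 and 344 after heating to 42 °C. IDRm libraries were higher at 30 °C, and all heated libraries lay between 268 and 376 CPM. ARO1 changed at 40 °C by -2.03 ± 0.07 (edgeR adjusted p = 1.00e-22) in IDRm and -1.59 ± 0.07 (edgeR adjusted p = 9.52e-20) in WT cells, a difference of -0.43 ± 0.10 (edgeR adjusted p = 0.00208). At 30 °C IDRm was above WT by 0.49 ± 0.07 (edgeR adjusted p = 2.43e-06).

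TRP5 (tryptophan synthase, the last step to tryptophan) had 869.5 and 886 CPM at 30 °C, 258 and 290.4 after heating to 40 °C and 381 and 379.6 after heating to 42 °C in IDRm cells. TRP5 in WT cells had 733 and 745 CPM at 30 °C, 370 and 381 after heating to 40 °C and 484 and 509 after heating to 42 °C. IDRm lay above WT at 30 °C and below it at 40 and 42 °C, without overlap. The changes at 40 °C were -1.68 ± 0.07 (edgeR adjusted p = 1.55e-20) in IDRm and -0.98 ± 0.07 (edgeR adjusted p = 2.25e-14) in WT cells and differed by -0.70 ± 0.10 (edgeR adjusted p = 3.21e-06), and at 42 °C the difference was -0.63 ± 0.10 (edgeR adjusted p = 4.87e-06). ARO2 (chorismate synthase, at the branch point) fell at 40 °C, with log2 changes of -1.37 ± 0.08 (edgeR adjusted p = 2.87e-16) in IDRm and -0.90 ± 0.08 (edgeR adjusted p = 9.12e-12) in WT cells. TRP3 (a bifunctional enzyme of tryptophan synthesis) fell at 40 °C, with -1.25 ± 0.10 (edgeR adjusted p = 1.35e-13) in IDRm and -1.20 ± 0.09 (edgeR adjusted p = 3.97e-13) in WT cells, whereas TRP2 (anthranilate synthase, which works with it) was not called at 40 °C, at 0.08 in IDRm and 0.03 in WT cells. TRP2 was higher in IDRm than in WT cells at 42 °C by 0.52 ± 0.08 (edgeR adjusted p = 1.49e-06).

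At 30 °C, 3 of the 4 serine enzymes were lower in IDRm than in WT cells. SER3 and SER33 both encode 3-phosphoglycerate dehydrogenase, which draws carbon from glycolysis into serine. SER3 (YER081W), whose promoter is known to be silenced by transcription of a neighbouring noncoding RNA when serine is plentiful, had 102 and 93.2 CPM at 30 °C, 84.8 and 76.4 after heating to 40 °C and 51.1 and 41.8 after heating to 42 °C in IDRm cells. In WT cells SER3 had 273 and 268 CPM at 30 °C, 114 and 116 after heating to 40 °C and 54.4 and 64.4 after heating to 42 °C. The WT libraries at 30 °C stood far above all others. The IDRm over WT difference of SER3 was -1.48 ± 0.09 (edgeR adjusted p = 8.26e-14) at 30 °C and -0.52 ± 0.10 (edgeR adjusted p = 2.72e-04) at 40 °C. The fall at 42 °C was -1.06 ± 0.11 (edgeR adjusted p = 2.98e-10) in IDRm and -2.20 ± 0.10 (edgeR adjusted p = 2.97e-19) in WT cells, and these changes differed by 1.14 ± 0.15 (edgeR adjusted p = 4.20e-07).

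SER33 (YIL074C) was also lower in IDRm than in WT cells at 30 °C. It had 134 and 151 CPM at 30 °C, 76.5 and 80.1 after heating to 40 °C and 111 and 95.4 after heating to 42 °C in IDRm cells. WT libraries had 265 and 256 CPM at 30 °C, 92.2 and 101 after heating to 40 °C and 104 and 124 after heating to 42 °C for SER33. The difference at 30 °C was -0.87 ± 0.09 (edgeR adjusted p = 1.71e-08), and the strains overlapped at 42 °C. SER1 (phosphoserine aminotransferase) had 355 and 388 CPM at 30 °C, 164 and 178 after heating to 40 °C and 279 and 260 after heating to 42 °C in IDRm cells. For SER1, WT cells had 462 and 419 CPM at 30 °C, 160.1 and 183 after heating to 40 °C and 235 and 226 after heating to 42 °C. The IDRm over WT difference of SER1 at 30 °C was -0.25 ± 0.08 (edgeR adjusted p = 0.0244). That call was lost without WT 30 °C replicate 1 (-0.17, edgeR adjusted p = 0.27), without IDRm 30 °C replicate 1 (-0.18, edgeR adjusted p = 0.302) and with DESeq2's Wald test (adjusted p = 0.135), which leaves SER3 and SER33. SER1 fell at 40 °C, with log2 changes of -1.12 ± 0.08 (edgeR adjusted p = 6.47e-14) in IDRm and -1.36 ± 0.08 (edgeR adjusted p = 5.07e-16) in WT cells. SER2 (phosphoserine phosphatase, the last step) fell at 40 °C, with -0.57 ± 0.11 (edgeR adjusted p = 1.87e-05) in IDRm and -0.65 ± 0.11 (edgeR adjusted p = 1.90e-06) in WT cells, and was not called at 42 °C, at 0.08 in IDRm and -0.15 in WT cells.

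In the threonine pathway, the entry enzyme HOM3 rose with heat in IDRm cells. HOM3 (YER052C) encodes aspartate kinase, the first and feedback-inhibited step towards threonine and methionine. HOM3 had 348 and 382 CPM at 30 °C, 539.6 and 599 after heating to 40 °C and 556 and 566 after heating to 42 °C in IDRm cells. WT cells kept 376 and 364 CPM at 30 °C, 335 and 349 after heating to 40 °C and 321 and 343 after heating to 42 °C. The heated IDRm libraries lay above all others, which ranged from 321 to 382 CPM. HOM3 rose in IDRm cells by 0.64 ± 0.07 (edgeR adjusted p = 1.24e-09) at 40 °C and 0.62 ± 0.07 (edgeR adjusted p = 3.44e-09) at 42 °C, while in WT cells the changes were -0.11 ± 0.07 (edgeR adjusted p = 0.155) at 40 °C and -0.16 ± 0.07 (edgeR adjusted p = 0.0532) at 42 °C. The difference between the strains' changes was 0.75 ± 0.10 (edgeR adjusted p = 2.45e-06) at 40 °C and 0.78 ± 0.10 (edgeR adjusted p = 4.26e-07) at 42 °C.

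HOM2 (aspartate-semialdehyde dehydrogenase, the next step) had 1245 and 1250 CPM at 30 °C, 1249 and 1276 after heating to 40 °C and 1540 and 1566 after heating to 42 °C in IDRm cells. The HOM2 level in WT cells was 1013 and 964 CPM at 30 °C, 984 and 999.6 after heating to 40 °C and 868 and 955 after heating to 42 °C. IDRm lay above WT at every temperature, by 0.34 ± 0.07 (edgeR adjusted p = 4.58e-04) at 30 °C and 0.77 ± 0.07 (edgeR adjusted p = 2.44e-11) at 42 °C. HOM6 (homoserine dehydrogenase) had 700 and 679 CPM at 30 °C, 722 and 755 after heating to 40 °C and 538 and 521 after heating to 42 °C in IDRm cells. For HOM6, WT cells had 726 and 679.8 CPM at 30 °C, 739.5 and 758 after heating to 40 °C and 436 and 462 after heating to 42 °C. It was lowest at 42 °C, at -0.38 ± 0.07 (edgeR adjusted p = 5.17e-06) in IDRm and -0.65 ± 0.07 (edgeR adjusted p = 3.23e-10) in WT cells relative to 30 °C. THR1 (homoserine kinase) had 339 and 346 CPM at 30 °C, 186 and 195 after heating to 40 °C and 269 and 285 after heating to 42 °C in IDRm cells. The THR1 level in WT cells was 348 and 338 CPM at 30 °C, 245 and 268 after heating to 40 °C and 239.8 and 296 after heating to 42 °C. Its fall at 40 °C was -0.85 ± 0.09 (edgeR adjusted p = 1.09e-10) in IDRm and -0.42 ± 0.08 (edgeR adjusted p = 3.74e-05) in WT cells. THR4 (threonine synthase) fell at 42 °C, with -0.53 ± 0.07 (edgeR adjusted p = 2.69e-08) in IDRm and -0.61 ± 0.07 (edgeR adjusted p = 2.46e-09) in WT cells.

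Asparagine synthetase is encoded by ASN1 and ASN2, and ASN1 (YPR145W) had the larger swing. ASN1 had 1783 and 1840 CPM at 30 °C, 578 and 612 after heating to 40 °C and 1590 and 1713 after heating to 42 °C in IDRm cells. In WT cells it stood at 1608 and 1624 CPM at 30 °C, 679.9 and 757 after heating to 40 °C and 1285 and 1552 after heating to 42 °C. All 40 °C libraries lay below every other library, and the 42 °C libraries came close to the 30 °C range. ASN1 changed at 40 °C by -1.61 ± 0.08 (edgeR adjusted p = 4.05e-18) in IDRm and -1.17 ± 0.08 (edgeR adjusted p = 1.26e-14) in WT cells. ASN2 had 956 and 986 CPM at 30 °C, 559.7 and 566 after heating to 40 °C and 682 and 741 after heating to 42 °C in IDRm cells. For ASN2, WT cells had 855 and 818 CPM at 30 °C, 626 and 633 after heating to 40 °C and 615 and 649 after heating to 42 °C. Its fall at 40 °C was -0.79 ± 0.07 (edgeR adjusted p = 1.27e-12) in IDRm and -0.41 ± 0.07 (edgeR adjusted p = 1.28e-06) in WT cells, and the difference between them was -0.38 ± 0.09 (edgeR adjusted p = 0.00459).

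For 6 steps the genome holds a pair of isozyme genes, and the split of counts within each pair was followed over the libraries. On counts per length, LEU4 of LEU4 and LEU9, both alpha-isopropylmalate synthases at the start of the leucine branch, took 82.1% and 82.3% at 30 °C, 94.8% and 93.9% after heating to 40 °C and 86.7% and 88.1% after heating to 42 °C in IDRm cells. In WT cells LEU4 took 78.9% and 78.1% at 30 °C, 91.5% and 91.7% after heating to 40 °C and 76.1% and 78.9% after heating to 42 °C. The share on LEU4 was highest at 40 °C in both strains, with no overlap between 40 °C and the other temperatures. LEU9 had 186 and 179.9 CPM at 30 °C, 45.5 and 53 after heating to 40 °C and 115 and 107 after heating to 42 °C in IDRm cells. The LEU9 level in WT cells was 155 and 167 CPM at 30 °C, 47.6 and 53.4 after heating to 40 °C and 135 and 118 after heating to 42 °C. LEU4 had 872 and 858 CPM at 30 °C, 856 and 834 after heating to 40 °C and 769 and 809.9 after heating to 42 °C in IDRm cells. For LEU4, WT cells had 593 and 610.3 CPM at 30 °C, 528 and 605 after heating to 40 °C and 439.8 and 453 after heating to 42 °C. LEU9 fell at 40 °C, with log2 changes of -1.89 ± 0.10 (edgeR adjusted p = 1.89e-17) in IDRm and -1.66 ± 0.10 (edgeR adjusted p = 9.06e-16) in WT cells. LEU4 was not called at 40 °C in either strain and was higher in IDRm than in WT cells, by 0.82 ± 0.07 (edgeR adjusted p = 1.41e-11) at 42 °C.

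ARO3 and ARO4 encode the phenylalanine-sensitive and the tyrosine-sensitive form of the first enzyme of the shikimate pathway. ARO3 took 25.3% and 24.7% at 30 °C, 19.2% and 17.9% after heating to 40 °C and 25.6% and 25.8% after heating to 42 °C of that pair in IDRm cells. The ARO3 share in WT cells was 26.1% and 25.7% at 30 °C, 19.0% and 19.0% after heating to 40 °C and 25.1% and 26.0% after heating to 42 °C. Both strains were lower at 40 °C, without overlap. ARO3 had 392 and 376 CPM at 30 °C, 295 and 289.6 after heating to 40 °C and 378 and 402 after heating to 42 °C in IDRm cells. The ARO3 level in WT cells was 323 and 313 CPM at 30 °C, 226 and 239 after heating to 40 °C and 215 and 251 after heating to 42 °C. ARO4 had 1154 and 1149 CPM at 30 °C, 1238 and 1332 after heating to 40 °C and 1099 and 1156 after heating to 42 °C in IDRm cells. For ARO4, WT cells had 912 and 904 CPM at 30 °C, 960.5 and 1019 after heating to 40 °C and 644 and 716 after heating to 42 °C. IDRm was above WT at 42 °C by 0.75 ± 0.08 (edgeR adjusted p = 1.61e-09) for ARO3 and 0.73 ± 0.07 (edgeR adjusted p = 1.85e-10) for ARO4.

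ASN1 took 65.1% and 65.1% at 30 °C, 50.8% and 52.0% after heating to 40 °C and 70.0% and 69.8% after heating to 42 °C of the asparagine synthetase pair in IDRm cells. The WT share of ASN1 was 65.3% and 66.5% at 30 °C, 52.0% and 54.5% after heating to 40 °C and 67.6% and 70.5% after heating to 42 °C. SER3 took 43.2% and 38.1% at 30 °C, 52.6% and 48.8% after heating to 40 °C and 31.5% and 30.5% after heating to 42 °C of its pair in IDRm cells. The SER3 share in WT cells was 50.8% and 51.2% at 30 °C, 55.4% and 53.6% after heating to 40 °C and 34.4% and 34.1% after heating to 42 °C. ASN1 thus had its lowest share at 40 °C, whereas SER3 had its lowest at 42 °C, in both strains. BAT1 took 75.3% and 73.9% at 30 °C, 75.6% and 75.4% after heating to 40 °C and 77.4% and 76.8% after heating to 42 °C of the aminotransferase pair in IDRm cells. The BAT1 share in WT cells was 68.5% and 72.8% at 30 °C, 69.7% and 70.6% after heating to 40 °C and 75.0% and 74.1% after heating to 42 °C.

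LYS20 and LYS21 both encode homocitrate synthase, the entry step to lysine, and share 48.6% and 47.2% of their 28-base words, so reads could be split between them and their separate values are uncertain. In the other pairs at most 5.35% of words were shared. LYS20 had 195 and 185 CPM at 30 °C, 83.1 and 78.4 after heating to 40 °C and 175 and 179.9 after heating to 42 °C in IDRm cells. The LYS20 level in WT cells was 181 and 192 CPM at 30 °C, 108 and 100 after heating to 40 °C and 140 and 175 after heating to 42 °C. LYS21 had 180.2 and 202 CPM at 30 °C, 136 and 142 after heating to 40 °C and 203 and 217 after heating to 42 °C in IDRm cells. For LYS21, WT cells had 205 and 187 CPM at 30 °C, 143 and 158 after heating to 40 °C and 146 and 158 after heating to 42 °C. As counted, both were lowest at 40 °C in IDRm cells. The log2 change there was -1.23 ± 0.10 (edgeR adjusted p = 4.56e-13) for LYS20 and -0.46 ± 0.09 (edgeR adjusted p = 1.97e-05) for LYS21.

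**Figure D5:**
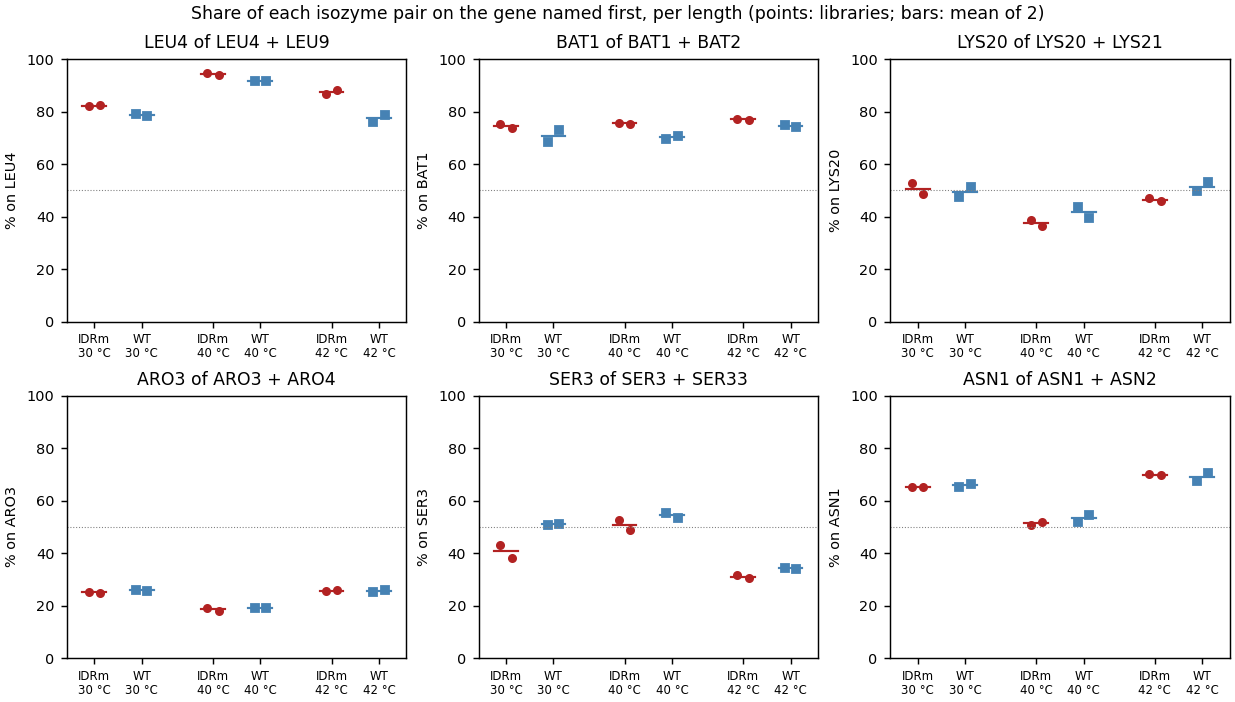
Share of each isozyme pair's counts per length that fell on the gene named first (%, vertical axes from 0 to 100, dotted line at equal shares), by strain and temperature, with a point for each library and a bar at the mean of 2. LEU4 has a mean of 94.4% at 40 °C in IDRm and 91.6% in WT cells, while ASN1 and ARO3 have their lowest means at 40 °C.

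Per length, the enzymes spanned a wide range, and their order changed with heat. At 30 °C ILV5 led in both strains, at 2164 ± 18.6 CPM per kb of coding sequence in IDRm and 2280 ± 156 in WT cells (mean ± SD, n = 2 libraries). ASN1, HOM2 and BAT1 followed, at 1054 ± 23.6, 1136 ± 3.15 and 1098 ± 21.4 in IDRm and at 940 ± 6.79, 900.5 ± 31.8 and 900 ± 9.39 in WT cells. HOM2 and BAT1 did not differ beyond their spread in WT cells. At 40 °C BAT1, ARO4 and HOM2 led in IDRm cells, at 1179 ± 34.2, 1154 ± 59.4 and 1150 ± 17.1 CPM per kb, and did not differ beyond their spread. HOM2, ARO4 and BAT1 led in WT cells at 40 °C, at 903 ± 10.1, 889 ± 36.9 and 868 ± 22.4. ILV5 stood at place 22 of 49 in IDRm and 19 in WT cells at 40 °C, with 215 ± 5.16 and 205 ± 11.5 CPM per kb. HIS3 and HIS2 were among the lowest in all groups.

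The strain differences were also counted by the Gcn4 motif. At 42 °C, 20 of the 29 enzymes with the full motif were called higher and 2 lower in IDRm than in WT cells, with a median log2 difference of 0.46. Of the 20 without it, 7 were higher and 3 lower, with a median of 0.11. At 40 °C, 14 of 29 with the motif were higher and 2 lower, and 3 of 20 without it were higher and 9 lower. At 30 °C the counts were 7 higher and 3 lower of 29, and 5 higher and 4 lower of 20. Of all tested genes, 20.4% were higher in IDRm and 20.7% lower at 42 °C. At 40 °C 11.4% of genes were higher and 14.5% lower, and at 30 °C 9.58% were higher and 6.75% lower. Over all tested genes the median difference at 42 °C was 0.08 for the 233 genes with the motif and 0.00 for the 5333 without. Between 40 and 30 °C the median change was -0.47 with the motif and -0.71 without it in IDRm cells, and -0.57 and -0.55 in WT cells. These counts describe the enzymes and were not tested against each other. Some enzymes without the full motif, such as SER1 and THR1, held its shorter core. All 7 arginine enzymes and none of the 4 serine enzymes had the full motif, so the split is in part a split by pathway. The 233 genes include the 29 enzymes with the motif.

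The regulator itself moved with temperature and strain. GCN4 had 87.4 and 97.8 CPM at 30 °C, 213 and 208 after heating to 40 °C and 84.6 and 88.2 after heating to 42 °C in IDRm cells. In WT cells GCN4 had 61.4 and 70.8 CPM at 30 °C, 153 and 144 after heating to 40 °C and 65.9 and 59.9 after heating to 42 °C. Both strains were highest at 40 °C, and the IDRm libraries lay above the WT libraries at each temperature without overlap. GCN4 rose at 40 °C by 1.18 ± 0.09 (edgeR adjusted p = 1.44e-13) in IDRm and 1.18 ± 0.10 (edgeR adjusted p = 9.72e-13) in WT cells and was not called at 42 °C, at -0.10 in IDRm and -0.04 in WT cells. IDRm was above WT by 0.51 ± 0.10 (edgeR adjusted p = 4.01e-04) at 30 °C, 0.51 ± 0.09 (edgeR adjusted p = 4.17e-05) at 40 °C and 0.45 ± 0.10 (edgeR adjusted p = 6.04e-04) at 42 °C. The sources used here do not say whether its count includes the short upstream reading frames of GCN4, and its part in the enzymes' levels was not tested. Of 11 regulators listed, 4 fell and 4 rose at 40 °C in IDRm cells, against 4 and 2 in WT cells. Of all tested genes, 39.9% fell and 37.4% rose in IDRm, and 39.5% and 36.1% in WT cells. LEU3, the regulator of the branched-chain pathway, fell at 40 °C, with log2 changes of -1.63 ± 0.16 (edgeR adjusted p = 5.19e-11) in IDRm and -1.03 ± 0.15 (edgeR adjusted p = 3.67e-07) in WT cells. ARG82, an inositol polyphosphate kinase needed for arginine control, rose by 1.81 ± 0.15 (edgeR adjusted p = 1.28e-12) in IDRm and 1.82 ± 0.14 (edgeR adjusted p = 1.74e-13) in WT cells.

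Among 21 further biosynthetic enzymes, 14 fell and 4 rose at 40 °C in IDRm cells, and 14 fell and 5 rose in WT cells. At 42 °C, 10 fell and 5 rose in IDRm, and 12 fell and 3 rose in WT cells. Between the strains at 42 °C, 3 of the 21 were lower and 5 higher in IDRm, where 20.7% of all tested genes were lower and 20.4% higher. At 40 °C 6 were lower and 1 higher in IDRm, with 14.5% and 11.4% of all genes. At 30 °C 2 were lower and 3 higher, with 6.75% and 9.58% of all genes. In IDRm cells 39.9% of all genes fell and 37.4% rose after heating to 40 °C, and 36.7% fell and 36.8% rose after heating to 42 °C. In WT cells 39.5% fell and 36.1% rose after heating to 40 °C, and 33.6% fell and 30% rose after heating to 42 °C. AAT2 (cytosolic aspartate aminotransferase) had the largest strain difference of them at 42 °C, at -1.26 ± 0.09 (edgeR adjusted p = 4.15e-13), and that of GLT1 (glutamate synthase) was -0.93 ± 0.08 (edgeR adjusted p = 5.00e-11). GLT1 was lower in IDRm at 30 °C also, at -0.67 ± 0.08 (edgeR adjusted p = 1.17e-07).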

How the data were processed

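Ribosome footprints were measured in 12 libraries of budding yeast, 2 for each of 6 groups formed by strain and temperature. The values are raw counts per gene in a table deposited by the authors, with no normalization. Per the labels' protocols, portions of a main culture went to each temperature, and cells were filtered and frozen. STAR 2.5.2b, Bowtie2 2.2.6, cutadapt 1.17, bcl2fastq 2.17.1.14 and build R64 are listed in the submitters' processing notes. What each program did, how strands were treated and which reads were counted is not stated there. Reads shared by near-identical genes may have been split or dropped. No matched RNA sequencing was used here.

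All 12 libraries entered 1 fit with edgeR 4.0.16 in R 4.3.3, as a quasi-likelihood test with a mean for each group, robust dispersions and TMM scaling. Genes with too few counts (filterByExpr, minimum count 10, minimum total 15) were left out, which kept 5719 of 6697 genes and all 49 enzymes. The fit had 6 residual degrees of freedom per gene. P-values were adjusted over all tested genes by the Benjamini-Hochberg method in each of 11 comparisons, with calls at an adjusted p of 0.05, and standard errors were taken from the log2 change and its F statistic. The 11 comparisons were heated against 30 °C and 42 against 40 °C in each strain, IDRm against WT within a temperature, and the strain difference in each change from 30 °C. The fit was tested on simulated data made from these libraries. CPM values are counts over the TMM-scaled library size, and values per kb use the coding length of the R64 annotation, in which 6014 of the table's identifiers and all 49 enzymes were found.

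Motifs were searched on both strands in 500 bases before the start codon, read from the RefSeq R64 genome, since a table of promoter windows was not used here. In windows of 250 bases before to 50 bases after the start codon, the full Gcn4 motif stood before 40.8% of the enzymes and 2.8% of genes. Alternatives were DESeq2 1.42.0, other scalings, no filter on low counts, a fit with only the libraries of the comparison, a replicate block, and leaving out each library in turn. The members and the gene lists were chosen with earlier results of these data known. Values in every library are given for the called enzyme with the largest change in each pathway and comparison with 30 °C or between strains, for isozyme pairs, HIS3 and further enzymes chosen after their values were seen. Of each other gene list, at most 3 called genes were named, and these were not in every comparison the ones with the largest changes. Of the 49 enzymes, 1 enters the counts and sums but is not reported here singly.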

Additional observations from a re-analysis of the deposited data

Results flagged for a closer look

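The change from 30 °C was tested for a difference between IDRm and WT cells (IDRm minus WT, log2 scale, edgeR with Benjamini-Hochberg adjustment), and the 45 differences listed here passed the threshold. At 40 °C the called differences of histidine and arginine enzymes were 0.46 for HIS4, 0.86 for HIS5, 0.67 for ARG1, 0.32 for ARG4 and 0.44 for ARG5,6. Those of the other pathways at 40 °C that lay above 0 were 0.43 for LYS1, 0.96 for SER3, 0.56 for SER33 and 0.75 for HOM3. Below 0 at 40 °C were TRP5 at -0.70, ARO1 at -0.43, ARO2 at -0.47, THR1 at -0.43, ASN1 at -0.44 and ASN2 at -0.38. Of these, the calls of ARG4, ARG5,6, LYS1, SER33, THR1 and ASN1 were lost without at least 1 library.

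At 42 °C the difference was 0.41 for HIS1, -0.60 for HIS2, 1.06 for HIS4 and 1.15 for HIS5. Among the arginine enzymes it was 1.21 for ARG1, 0.61 for ARG3, 0.66 for ARG4 and 0.48 for ARG5,6. Among the branched-chain enzymes it was 0.33 for LEU1, 0.30 for LEU4, 0.32 for BAT1 and 0.42 for BAT2, and it was below 0 for ILV1 at -0.37, ILV5 at -0.32 and LEU9 at -0.39. The lysine enzymes LYS1, LYS2, LYS9 and LYS21 had differences of 1.03, 0.45, 0.40 and 0.51. Of the aromatic enzymes, TRP2, ARO3 and ARO4 stood at 0.36, 0.48 and 0.39, and TRP5 and ARO1 at -0.63 and -0.67. The serine enzymes SER1, SER3 and SER33 stood at 0.47, 1.14 and 0.74, and the threonine enzymes HOM2, HOM3 and HOM6 at 0.43, 0.78 and 0.27. The calls of HIS2, ILV5, LEU1, LEU4, LEU9, BAT1, BAT2, LYS9, TRP2 and HOM6 at 42 °C were lost without at least 1 library.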

How the results depend on the processing

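With scaling by library size alone, 2 enzymes were higher at 42 than at 30 °C in WT cells, and 8 were lower and 31 higher at 42 than at 40 °C. With the same scaling 4 were higher at 40 than at 30 °C in IDRm cells, 5 were lower at 42 than at 40 °C in IDRm cells, and 9 were lower in IDRm than in WT cells at 42 °C. With DESeq2's Wald test, 3 and 5 enzymes were lower in IDRm than in WT cells at 30 and 40 °C. Leaving out each library in turn gave 4 to 7 higher enzymes at 40 °C in IDRm cells, 3 to 7 lower and 6 to 12 higher in IDRm than in WT cells at 30 °C, 5 to 12 lower at 40 °C and 3 to 6 lower at 42 °C. The differences between the strains' changes numbered 6 to 10 above 0 at 40 °C and 18 to 26 above and 3 to 6 below 0 at 42 °C.

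A change of sign was counted only where the enzyme was called in the fit used here or in the alternative. Of 539 changes of single enzymes, 25 changed sign in this sense, all with scaling by library size alone. At 40 against 30 °C in IDRm cells these became -0.0112 for HIS4, -0.0493 for LEU1, -0.12 for BAT1, -0.19 for BAT2, -0.22 for LYS12, -0.0690 for ARO4, -0.21 for HOM2 and -0.13 for HOM6. In WT cells they became -0.00369 for LEU1, -0.21 for TRP2, -0.12 for ARO4, -0.24 for HOM2 and -0.15 for HOM6. At 42 against 40 °C in IDRm cells they became 0.0253 for ARO4, 0.19 for HOM3 and 0.17 for THR4. In WT cells they became 0.0592 for ARG1, 0.28 for ARG3, 0.00236 for ARG4, 0.0593 for LEU1, 0.22 for LYS9, 0.28 for TRP2, 0.30 for ARO3, 0.18 for HOM2 and 0.26 for HOM3. These shifts are of the size by which that scaling moved the median of all genes. With DESeq2's size factors 12 calls were lost and 13 gained. With DESeq2's Wald test 49 were lost, with no filter 5 were lost and 4 gained. With only the libraries of the comparison 14 were lost and 16 gained.

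The labels do not say that a replicate number marks a culture, and the differences between replicates correlated across genes at -0.01 to 0.02 between temperatures of a strain. Between IDRm and WT cells at the same temperature they correlated at 0.0254 at 30 °C, 0.0597 at 40 °C and 0.154 at 42 °C, so not every pair passed 0.1 and the numbers were not used as pairs. With a replicate block, 20 enzymes in place of 19 were higher at 42 than at 40 °C in WT cells, and 12 in place of 13 were higher at 42 than at 30 °C in IDRm cells. Also, 16 in place of 17 were higher in IDRm than in WT cells at 40 °C, and 7 in place of 6 had a difference between changes below 0 at 40 °C. The p-values rest on the spread between the 2 libraries of each group, pooled over the 6 groups. For each gene that spread was also drawn towards the trend over all genes. This trend had a median weight of 25.5 degrees of freedom, beside 6 residual degrees of freedom. HIS3, with at most 51 counts per library, had the least depth.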

Other observations

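Enzymes that break amino acids down were listed beside those that make them. Of 9 such enzymes, 8 rose and none fell at 40 °C in IDRm cells, and all 9 rose in WT cells, each relative to 30 °C. At 42 °C, 6 rose and 1 fell in IDRm cells, and 4 rose and none fell in WT cells. Of all tested genes, 37.4% rose and 39.9% fell at 40 °C in IDRm cells, and 36.1% rose and 39.5% fell in WT cells. At 42 °C, 36.8% rose and 36.7% fell in IDRm, and 30% rose and 33.6% fell in WT cells. PUT1 (proline oxidase) had the largest change, with a log2 change at 40 °C of 4.32 in IDRm and 4.05 in WT cells. CAR1 (arginase) rose at 40 °C by 2.22 in IDRm and 1.84 in WT cells. CHA1, a deaminase of serine and threonine, had 217 and 209 CPM at 30 °C, 351 and 361 after heating to 40 °C and 224 and 225 after heating to 42 °C in IDRm cells. In WT cells CHA1 had 110.2 and 103 CPM at 30 °C, 256 and 274 after heating to 40 °C and 142 and 138 after heating to 42 °C. The IDRm libraries of CHA1 lay above the WT libraries at each temperature, with log2 differences of 0.99 at 30 °C, 0.42 at 40 °C and 0.68 at 42 °C, each called by edgeR. The 9 enzymes as a list were mixed between the strains. In IDRm, 2 were lower and 3 higher at 30 °C, with 6.75% and 9.58% of all genes. At 40 °C 4 were lower and 2 higher, with 14.5% and 11.4% of all genes. At 42 °C none was lower and 5 were higher, with 20.7% and 20.4% of all genes.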
